A study of Callithrix jacchus with 71 samples.

Results

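Induced neural stem cell-like cells (iNSLCs) arise when marmoset fibroblasts carrying reprogramming factors form dome-shaped colonies, and they can later be converted into induced pluripotent stem cells (iPSCs). Here their transcriptome is described cell by cell, as the genes that every cell carried and the genes that a part of the cells carried. All 65 cells whose labels name them iNSLCs were taken, of 71 cells in all. Core genes have a value above 0 in all 65 cells, and there were 1636 of them among 23561 named genes, or 6.94%. Variable genes have a mean of at least 10 normalized counts over the 65 cells and a read in 20% to 80% of them, and there were 486, or 2.06%. Since these values chose the genes, the 2 sets are a description and no test was made of them.

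RamDA-seq, a single-cell RNA-seq method that copies RNA along the whole length of transcripts, was applied to cells sorted into the wells of a plate. The iNSLCs were E01F A-2, a clone obtained from dorsal skin fibroblasts of an embryonic marmoset (E01F) and taken at an early passage in NSM, the medium used for induction. The fibroblasts had received the EP-A episomal vectors, which encode a dominant-negative mouse p53 (mp53DD), EGFP and the human factors LIN28, L-MYC, SOX2, OCT4 and KLF4. The reference cells were 4 no. 40 embryonic stem cells (ESCs; cells 10, 11, 12 and 14), 1 E01F A-2-2 iPSC (cell 19), derived through the same route, and 1 E01F fibroblast (cell 02). Each group comes from 1 source in the labels and was taken as 1 culture, so the reference cells give values to set beside the iNSLCs with no test between groups. The ESCs and the iPSC are jointly called pluripotent stem cells (PSCs), and ESC values are given in the order of cell number.

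A neural stem cell divides, keeps its neighbours in an epithelium by N-cadherin contacts, and holds off differentiation through Notch signals that pass between touching cells. SOX-family and POU-family transcription factors set its identity, and receptors for FGF, Wnt, hedgehog and planar polarity signals tell it when and where to divide. Genes needed at all times, such as those of ribosomes and glycolysis, are likely to be read in any cell, whereas genes of the cell cycle or of a passing signal are transcribed only in some cells at a given moment. A gene can therefore be abundant in a culture because every cell carries it or because a few cells carry much of it, and only single cells tell these apart.

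The iNSLCs had 82268 to 695241 reads on genes (median 268128) and 7574 to 13058 genes with a read (median 10781). The normalized count of a gene is its number of reads divided by a factor for the cell, and 1 read was worth 0.441 to 2.84 normalized counts in iNSLCs. Levels are thus set side by side between cells for a gene, but not between genes, because long transcripts give more reads. The deposited scale does not give every cell the same total of normalized counts. The fibroblast, with 1294430 reads at 0.405 each, has a larger total than cell 30, with 95144 reads at 2.29 each. Levels of single genes are given without rescaling. ESC cell 11 stood apart among the references, with 7126 genes, whereas the other PSCs had 13669 to 15521. The PSCs had 134328 to 1003718 reads, with ESC cell 11 the lowest, and the fibroblast had 1294430. The 27 iNSLCs numbered 56 or below had more reads than the 38 numbered 57 or above (medians of 357910 and 208746) but fewer genes (10061 and 11334), and the labels do not say what the numbers stand for beyond naming the cells. This boundary was chosen by eye from these same profiles in earlier work on the data, so differences across it describe the cells and are not independent of that choice. Intervals (CI) are exact Clopper-Pearson at 95% and cover only the counting of cells, each taken as an independent draw. Reads carry no molecular tags, and the counting error given for levels takes every read as an independent count. A cell without a read of a gene may still contain its RNA.

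The core genes took 45.7% to 64.4% of the normalized counts of an iNSLC (median 52.6%), and the variable genes 1.40% to 5.21% (median 2.56%). Among 6118 genes whose mean reached 10, 26.7% were core, 7.94% were variable, and 3999 had a read in more than 80% of cells but not in all. No gene with such a mean had a read in fewer than 20% of cells. The passage from core to the rest was gradual, since 938 genes had a read in 64 of the 65 cells. Core genes had a median level of 50.9 normalized counts and a median coefficient of variation (CV, the SD over cells divided by the mean) of 0.551, where counting error alone would give 0.160. For variable genes the medians were 13.5 normalized counts and a CV of 1.19, where counting error would give 0.314. At a like mean of 10 to 20, the median CV was 0.644 for 99 core genes, 1.17 for 402 variable genes and 0.814 for 2164 others. The rule itself favours even genes in the core and uneven ones among the variable genes.

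**Figure D1:**
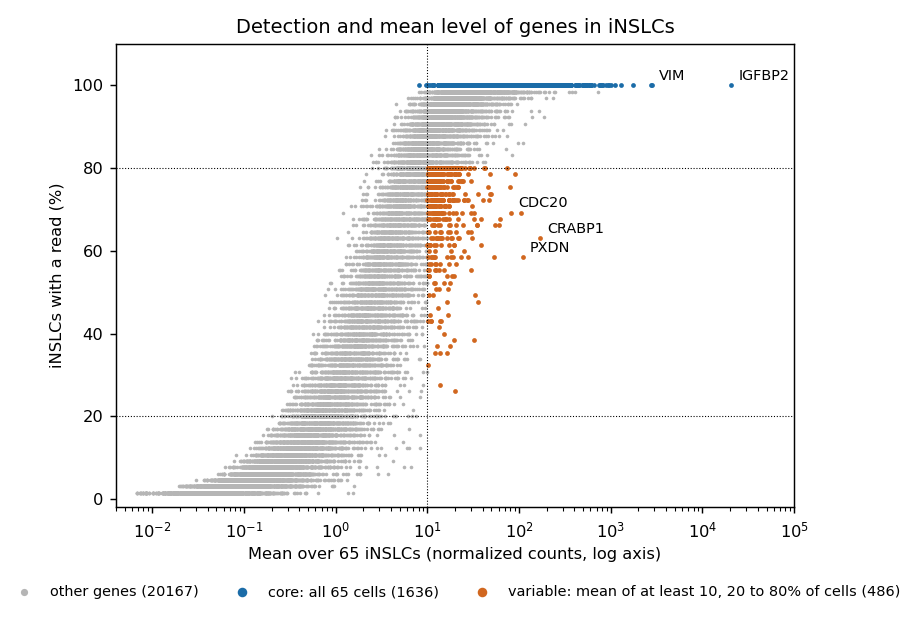
Share of the 65 iNSLCs with a read of a gene (y axis, %) against the gene's mean over the 65 cells (x axis, normalized counts, log axis), with 1 point per gene, core genes in blue, variable genes in orange and the other 20167 detected genes in grey. Dotted lines mark the mean of 10 and the shares of 20% and 80%. CRABP1 and PXDN have means above 100 and yet lack a read in 24 and 27 cells.

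All 7 markers given for iNSLCs were core genes, and 6 of them still had a read in all 62 cells that could be thinned to 100000 reads, MSI1 being the exception with 61. CDH2, the gene of N-cadherin, was at 23.9 in the lowest cell, 114 at the median and 329 in the highest. It was at 0.405, 0, 0 and 0 in the ESCs and 0 in the iPSC, and at 97.5 in the fibroblast. Every iNSLC exceeded every PSC, while the fibroblast lay within the iNSLC range. VIM, the gene of the intermediate filament vimentin, was at 669.8 in the lowest cell, 2333 at the median and 7552 in the highest. The PSCs had 0.810, 15.3, 5.94 and 6.66 in the ESCs and 1.07 in the iPSC, and the fibroblast had 7161, which is near the top of the iNSLC range. N-cadherin and vimentin are also products of mesenchymal cells, so these genes set the iNSLCs apart from PSCs and not from the fibroblast. IGFBP2, which encodes a secreted carrier of insulin-like growth factors, was at 5766 in the lowest cell, 20551 at the median and 61598 in the highest. The PSCs had 738, 472, 823 and 87.5 in the ESCs and 605 in the iPSC, and the fibroblast had 3738. All iNSLCs were above all 6 reference cells. Its mean of 20515 was the largest of any core gene, on a scale that also depends on transcript length.

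SOX2, MSI1, CNTFR and MEIS1 were core genes without a read in the fibroblast. SOX2, which encodes a transcription factor of both neural and pluripotent stem cells, was at 9.45 in the lowest cell, 86.1 at the median and 246 in the highest. The PSCs had 24.3, 5.11, 72.3 and 15.8 in the ESCs and 4.27 in the iPSC, so that the ranges overlapped. The vectors also carry SOX2, and reads of the vector and of the chromosome cannot be told apart in this table. MSI1, the gene of the RNA-binding protein Musashi-1, was at 11.6 in the lowest cell, 64.3 at the median and 206 in the highest. It was at 0, 23.0, 8.64 and 10.8 in the ESCs and 40.6 in the iPSC, and again the ranges overlapped. CNTFR encodes the receptor subunit that binds ciliary neurotrophic factor, and it was at 19.0 in the lowest cell, 76.4 at the median and 267 in the highest. MEIS1, the gene of a homeobox cofactor, was at 8.67 in the lowest cell, 59.2 at the median and 302 in the highest. Neither had a read in any reference cell. Against a floor of 3 reads over the 5 PSCs, the mean of CNTFR was at least 127-fold higher and that of MEIS1 at least 122-fold higher in iNSLCs.

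Core genes were for the most part shared with the reference cells. Of the 1636 core genes, 78.5% had a read in all 5 PSCs and 97.2% in the fibroblast, against 64.2% and 94.6% of all genes whose iNSLC mean reached 10. Core genes had a median level of 50.9 normalized counts, against 22.4 in that wider set. Comparisons with the wider set, here and below, are thus not matched for level. A core gene had a read in 1604, 1302, 1615 and 1599 cases in the ESCs, 1615 in the iPSC and 1590 in the fibroblast. The low count is that of ESC cell 11. The core genes took 31.3% to 42.7% of the normalized counts in PSCs and 35.9% in the fibroblast, below the lowest iNSLC. Because detection in iNSLCs chose these genes, a larger share in iNSLCs is favoured by the choice itself. Whether the gap exceeds that effect was not tested. The median log2 ratio of core genes, iNSLCs to PSCs, was 0.16 after a pseudocount of 1, and -0.02 over all genes with a mean of at least 10. It was 0.04 without ESC cell 11 and 0.46 with every cell scaled to the same total.

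Only 9 core genes, or 0.55%, had no read in any PSC, against 1.01% of all genes with a mean of at least 10. They are CNTFR and MEIS1, another 6 with a name, and 1 with a locus number alone. LRP2, which encodes the endocytic receptor megalin, was at 7.91 in the lowest cell, 119 at the median and 281 in the highest. It had no read in the fibroblast either, and was at least 194-fold higher than in PSCs. POU3F2, the gene of a POU-family factor of neural progenitors also called BRN2, was at 1.94 in the lowest cell, 90.4 at the median and 299 in the highest, with no read in the fibroblast and at least 153-fold above the PSC floor. NRCAM, the gene of a neuronal cell adhesion molecule, was lower, at 3.98 in the lowest cell, 32.2 at the median and 97.1 in the highest, and it too had no read in any reference cell. These 3 genes with CNTFR and MEIS1 were the 5 core genes without a read in all 6 reference cells. The fibroblast did contain reads of the others. NR2F1, the gene of the nuclear receptor COUP-TFI, was at 6.66 in the lowest cell, 89.7 at the median and 359 in the highest, and at 13.8 in the fibroblast. FAT3, the gene of an atypical cadherin, was at 4.31 in the lowest cell, 61.6 at the median and 264 in the highest and at 22.3 in the fibroblast. JAM2, the gene of a junctional adhesion molecule, was at 3.0 in the lowest cell, 17.1 at the median and 52.2 in the highest, and the fibroblast at 32.0 was within that range. With each PSC left out in turn, 9 to 12 core genes had no read in the remaining 4.

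**Figure D2:**
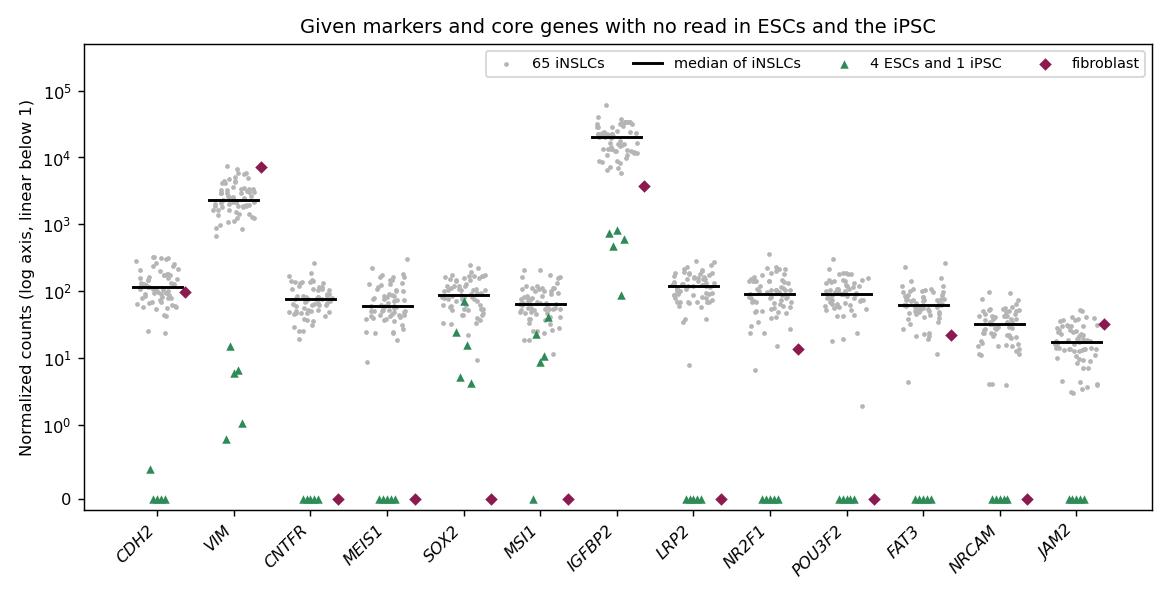
Normalized counts (y axis, log axis that is linear below 1) of the 7 given markers and 6 further core genes without a read in PSCs (x axis), with 1 grey point per iNSLC, a black line at the iNSLC median, green triangles for the 4 ESCs and the iPSC, and a dark red diamond for the fibroblast. No iNSLC is at 0 for any of these genes. The PSC triangles lie at 0 for 8 of the 13 genes, and the fibroblast is within the iNSLC range for CDH2, VIM, NR2F1, FAT3 and JAM2.

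In the fibroblast 46 core genes, or 2.81%, had no read, against 5.43% of all genes with a mean of at least 10. Of the 10 with the largest mean, CELSR2, IGDCC3, PRTG, SEMA5B and VANGL2 encode membrane proteins of polarity, adhesion or guidance. They were grouped after the genes were seen, and how common such proteins are among other core genes was not counted. CELSR2, the gene of a planar polarity cadherin, was at 156 in the lowest cell, 446 at the median and 991 in the highest, and at 71.5 to 268 in the PSCs. VANGL2, which encodes a membrane protein of the same planar polarity system, was at 63.0 in the lowest cell, 237 at the median and 547 in the highest, and at 9.16 to 76.6 in the PSCs. For CELSR2 the lowest iNSLC lay below the highest PSC, and the same was true of VANGL2. IGDCC3 and PRTG encode immunoglobulin-family surface proteins, of which protogenin (PRTG) is known from early neural tissue. IGDCC3 was at 75.9 in the lowest cell, 387 at the median and 997 in the highest, above the PSC range of 0 to 60.9. PRTG was at 32.1 in the lowest cell, 253 at the median and 1389.5 in the highest, and its PSC range of 0 to 27.8 lay below every iNSLC. The semaphorin gene SEMA5B had a mean of 284, the extracellular protein gene SMOC1 202, the nuclear pore gene NUP210 166, the chromatin protein gene CECR2 152 and the neuronal cytoskeleton-associated gene DPYSL5 146. For NUP210 and CECR2 the PSCs were within or above the iNSLC range, at 164 to 548 and 142 to 391.

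Of 485 genes of surface proteins in the table, 62 were core and 25 variable, which is 12.8% and 5.15%, against 6.94% and 2.06% of all named genes. All 62 and 25 were among the 192 surface genes with a mean of at least 10, where 26.7% and 7.94% of all such genes were core and variable. PTPRS and PTPRF encode receptor-type tyrosine phosphatases of the LAR family. PTPRS was at 268 in the lowest cell, 808 at the median and 1789 in the highest, and the PSCs at 93.0 to 219.6 were all below the lowest iNSLC, with the fibroblast at 496 inside the range. PTPRF was at 164 in the lowest cell, 470.0 at the median and 1198 in the highest and overlapped the PSC range of 278 to 741. BOC, which encodes a co-receptor for hedgehog ligands, was at 36.8 in the lowest cell, 568 at the median and 2038 in the highest. The PSCs had 0.405, 7.66, 2.70 and 4.17 in the ESCs and 27.8 in the iPSC, all below the lowest iNSLC, and the fibroblast had 83.0. FGFR1, the receptor gene for fibroblast growth factors, was at 21.9 in the lowest cell, 199 at the median and 616 in the highest, and the PSCs at 186 to 498 and the fibroblast at 299 were within that range. PLXNA1, a semaphorin receptor gene, had a mean of 214, and BSG, the gene of basigin, which accompanies lactate transporters to the membrane, one of 269. LRP1, the gene of a scavenger receptor, was at 13.3 in the lowest cell, 236 at the median and 743 in the highest. The PSCs at 488 to 2867 and the fibroblast at 3406 were all above this median, and 3 of these 6 cells were above every iNSLC.

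Receptors and ligands of the Notch system were both core. NOTCH1 was at 58.3 in the lowest cell, 307 at the median and 1281 in the highest, and NOTCH3 at 1.93 in the lowest cell, 202 at the median and 645 in the highest. PSCs were within these ranges, at 140.4 to 552 and 89.8 to 278. JAG1, a ligand gene, was at 29.8 in the lowest cell, 164 at the median and 1822 in the highest, and all PSCs, at 0 to 15, and the fibroblast, at 15.8, were below the lowest iNSLC. The highest value was in cell 27. DLL1, the gene of another ligand, was the most uneven core gene, with a CV of 2.50. It was at 1.16 in the lowest cell, 27.3 at the median and 1088 in the highest, and the 5 highest cells held 52.9% of its summed level. Cell 57 alone had the highest value, and the PSCs had 6.07, 0, 9.72 and 16.7 in the ESCs and 1.07 in the iPSC. HES5, a target gene of Notch signals, was a variable gene and not a core gene. It had a read in 47 of 65 cells, or 72.3% (CI 59.8% to 82.7%), at up to 162, and no read in any reference cell.

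Of 408 genes of secreted proteins, 26 were core and 27 variable, or 6.37% and 6.62%, against 6.94% and 2.06% of all named genes. Of the 97 whose mean reached 10, the same 26 and 27 were core and variable, where the shares over all such genes were 26.7% and 7.94%. IGFBP2 had the largest mean of the core secreted genes. AGRN, the gene of the proteoglycan agrin, was at 122 in the lowest cell, 719 at the median and 2037 in the highest, overlapping the PSC range of 526 to 1095. HSPG2, the gene of perlecan, was at 40.0 in the lowest cell, 449.6 at the median and 1009.9 in the highest, and 4 of the 5 PSCs were at or above 986. MDK, which encodes the heparin-binding growth factor midkine, was at 57.7 in the lowest cell, 362 at the median and 1124 in the highest. It was at 61.5, 38.3, 347 and 25.8 in the ESCs and 145 in the iPSC, and at 44.1 in the fibroblast, so 3 ESCs were near or below the lower end of the iNSLCs. MMP2, the gene of a gelatinase, was at 71.5 in the lowest cell, 295 at the median and 1021 in the highest, above all PSCs at 2.02 to 55.8 and around the fibroblast at 366. FN1, the fibronectin gene, was at 56.7 in the lowest cell, 269 at the median and 767 in the highest, far below the fibroblast at 6249, and SPARC at 40.6 in the lowest cell, 334 at the median and 903 in the highest was likewise below the fibroblast at 3823. The laminin gene LAMA5 had a mean of 358, the collagen gene COL18A1 345 and the protease inhibitor gene CST3 265.

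Of 921 transcription factor genes, 65 were core and 42 variable, or 7.06% and 4.56%, against 6.94% and 2.06% of all named genes. All of these were among the 313 whose mean reached 10, where 26.7% and 7.94% of all genes were core and variable. SREBF2, the gene of the factor that drives sterol synthesis, had the largest mean, at 65.2 in the lowest cell, 436 at the median and 946 in the highest. PSCs, at 117 to 301, were within that range. YBX1, which encodes a Y-box protein that also binds RNA, was among the more even factors, with a CV of 0.328 and a range of 67.0 to 420.1. SOX11, a factor gene of neural progenitors and young neurons, was at 32.5 in the lowest cell, 191 at the median and 896 in the highest. The PSCs had 31.2, 10.2, 85.8 and 38.3 in the ESCs and 1.07 in the iPSC, and only the iPSC and 2 ESCs lay below the iNSLC range. ZIC2, the gene of a zinc finger factor of the early neural plate, was at 0.742 in the lowest cell, 101 at the median and 567 in the highest, which is as low as 1 read in the lowest cell. It was at 119.8, 53.6, 36.2 and 25.8 in the ESCs and 0 in the iPSC, so the ESCs lay within the iNSLC range. FOXP4, a forkhead gene, was at 10.7 in the lowest cell, 116 at the median and 298 in the highest, and the PSCs at 17.1 to 115 overlapped it. The chromatin-remodelling gene ARID1A had a mean of 151, ZNF516 148, the homeobox gene ZFHX3 143, the general factor gene GTF2I 134 and the chromatin architecture gene HMGA1 111. For these 5 genes the PSCs lay within or above the iNSLC range, except ESC cell 12 for ZNF516, at 33.5 against a lowest iNSLC of 34.2.

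Genes of the basic machinery of the cell were counted by list, where 6.94% of all named genes and 26.7% of those with a mean of at least 10 were core. Of 82 cytosolic ribosomal protein genes 73 were core and none was variable. Those 82 genes summed to 8872 to 25739.7 normalized counts in iNSLCs, and to 3317 to 19207 in PSCs. Ribosomal genes have processed copies elsewhere in the genome, so their single values are uncertain. Of 49 translation factor genes 24 were core, of 57 splicing factor genes 27, of 39 chaperone genes 21, and of 24 cytoskeleton genes 16. Shares were lower for 37 proteasome genes, of which 9 were core, and for 59 genes of the respiratory chain and ATP synthase, of which 11 were core. Of these, 15 and 28 had a mean of at least 10. Among lists written after the core genes had been seen, 47 of 95 chromatin regulator genes, 7 of 19 planar polarity and atypical cadherin genes, and 15 of 29 genes of RNA-binding factors of progenitors were core.

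Of 17 glycolysis genes, all with a mean of at least 10, 12 were core and none was variable, where 26.7% and 7.94% of all such genes were. Their summed level was 1895 in the lowest iNSLC, 5759.8 at the median and 17657 in the highest, which was cell 50. In 45 of the 65 iNSLCs it exceeded the highest PSC, at 4638. GPI, the gene of glucose-6-phosphate isomerase, was more uneven than GAPDH, ENO1 and PKM, with a CV of 1.18. It was at 162 in the lowest cell, 541 at the median and 6383 in the highest. GAPDH had a CV of 0.438, ENO1 of 0.485 and PKM of 0.441. SLC2A1, the gene of the glucose transporter GLUT1, was among the 10 core genes of largest mean, at 53.4 in the lowest cell, 764 at the median and 2941 in the highest. The PSCs had 208, 7.66, 138 and 51.6 in the ESCs and 285 in the iPSC, and the fibroblast 14.2 was below every iNSLC. Of 19 cholesterol synthesis genes 5 were core, all of them among the 14 with a mean of at least 10. The core gene HMGCS1 was at 1.59 in the lowest cell, 18.9 at the median and 279 in the highest, with a CV of 1.26.

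**Figure D3:**
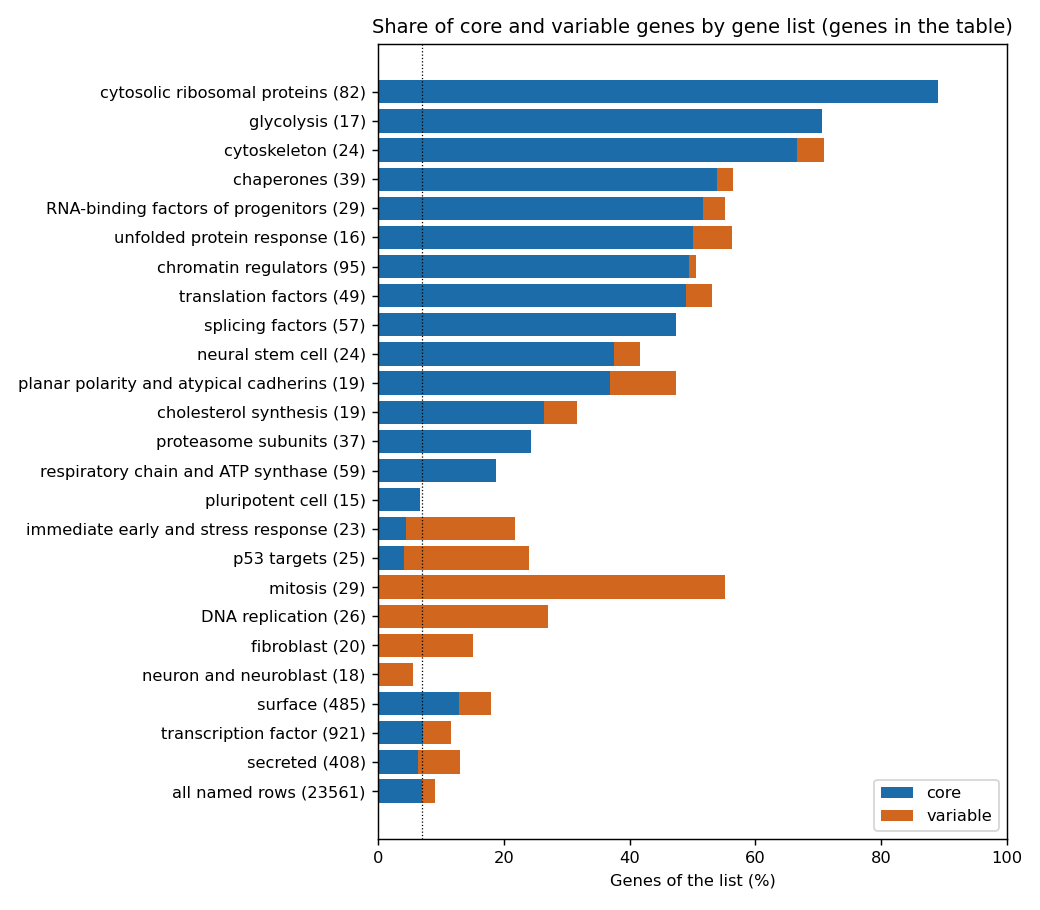
Share of the genes of each list (x axis, %) that were core (blue) or variable (orange), with the number of listed genes in the table in brackets, for lists of at least 15 genes and for all 23561 named genes. The dotted line marks the 6.94% of all genes that were core. Ribosomal protein genes have the highest core share, 73 of 82, and mitosis genes the highest variable share, 16 of 29.

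Genes of the translation machinery were among the core genes with the smallest CVs. EEF1A1, which encodes a translation elongation factor, and the ribosomal protein genes RPL17, RPL31, RPS7, RPS12 and RPL32 had CVs of 0.267 to 0.277. PRRC2C and CELF1, which encode RNA-binding proteins, had CVs of 0.275 each. PRRC2C was at 63.9 in the lowest cell, 132 at the median and 279 in the highest and CELF1 at 36.7 in the lowest cell, 106 at the median and 196 in the highest, and the PSCs at 177 to 378 and 48.5 to 202 overlapped these ranges. In 260 core genes the highest iNSLC had less than 10 times the lowest. In 377 core genes every cell had at least 10 reads, whereas 417 had a single read in their lowest cell.

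At the other end, 35 core genes had a CV of at least 1. Besides DLL1 the most uneven were often raised in 1 cell. LRPPRC, which encodes a mitochondrial RNA-binding protein, was at 2.32 in the lowest cell, 30.5 at the median and 725 in the highest, and the highest value was that of cell 45. TUBA1C, an alpha-tubulin gene, was at 8.13 in the lowest cell, 46.6 at the median and 1122 in the highest, with the highest in cell 47. HSPA5, the gene of the endoplasmic reticulum chaperone BiP, was at 4.56 in the lowest cell, 117 at the median and 1700.3 in the highest, with the highest in cell 60. PCBP4, the gene of an RNA-binding protein, was at 13.7 in the lowest cell, 85.7 at the median and 941 in the highest, with the highest in cell 81. The 5 highest cells held 49.0% of the summed level of LRPPRC, 45.6% of that of TUBA1C and 34.1% of that of HSPA5, against a median of 17.1% over core genes. DPY19L4, FLVCR1, SCAF11, HMGCS1 and SRP72 had CVs of 1.21 to 1.47.

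The variable genes had a read in a median of 73.8% of cells, so that most lay near the upper limit of the rule. An iNSLC had a read of 185 to 448 of the 486, with a median of 363. In PSCs the number was 254 to 442, and in the fibroblast 381. For 231 of them, or 47.5%, all 5 PSCs had a read, against 64.2% of all genes whose iNSLC mean reached 10. No PSC had a read for 11 variable genes (2.26%, against 1.01%), and the fibroblast had none for 105 (21.6%, against 5.43%). The median variable gene had a read in 63.0% of the lower-numbered iNSLCs (up to 56) and in 78.9% of the higher-numbered ones (from 57), while the medians were 71.9% for the 32 shallower and 72.7% for the 33 deeper cells. For 106 variable genes, or 21.8%, the share of cells was at least 25 points higher in the higher-numbered cells, against 13.5% of all genes with a read in 20% to 80% of iNSLCs and 2.93% of genes whose mean reached 10. For 0 variable genes was it that much higher in the lower-numbered cells, against 2.04% of all genes with a read in 20% to 80%. By depth, a gap of that size was found for 13 variable genes (2.67%) in favour of the deeper cells, against 8.98% of all genes with a read in 20% to 80%, and for 3 (0.617%) in favour of the shallower cells. The part of the cell number in single results was not tested. Shares for either side are given for some genes only, and a gene without them may also differ between the sides.

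The variable gene of largest mean was CRABP1, which encodes a protein that binds retinoic acid in the cytoplasm. It had no read in 24 cells, was at 4.77 at the median, and reached 3028 in cell 40. The 5 highest cells held 66.7% of its summed level. Reads were found in 63.0% of the lower-numbered cells and 63.2% of the higher-numbered. The PSCs had 0, 0, 0.540 and 3.33 in the ESCs and 25.6 in the iPSC and the fibroblast 15.8.

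PXDN, the gene of the matrix peroxidase peroxidasin, had many reads wherever it was found. It had no read in 27 cells and at least 10 reads in each of the 38 others, where it was at 24.3 at the lowest, 163 at the median and 466 at the highest. Thus no iNSLC had 1 to 9 reads of PXDN. All 6 reference cells had it, with 238, 388, 177 and 177 in the ESCs and 139 in the iPSC and 311 in the fibroblast. Detection was 59.3% and 57.9% for the 2 ranges of cell number. No other variable gene had at least 10 reads in every cell with a read, and over all 486 the median share of such cells among those with a read was 56.5%. Next came FLNC, the gene of filamin C, with 48 of 52 cells at 10 reads or more. INPP5D, a gene of a phosphoinositide phosphatase known from blood cells, had 39 of 44, and EDA2R, a receptor gene of the tumour necrosis factor receptor family named here after its values were seen, 42 of 48. FLNC was at 921 in its highest cell, cell 96, and at 1044 in the fibroblast. WDR90, a gene of cilia and centrioles, had no read in 22 cells and reached 340.4.

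Among the 25 variable surface genes, PCDH8 and FZD10 had the largest means. PCDH8, the gene of a protocadherin of the embryo, had a read in 43 cells (66.2%, CI 53.4% to 77.4%), at a median of 41.2 where it was found and a highest value of 392. In PSCs it had a read in the iPSC alone, at 2.14, and none in the fibroblast. FZD10, a Wnt receptor gene, had a read in 47 cells (72.3%, CI 59.8% to 82.7%) at up to 277. The PSCs had 0, 2.55, 6.48 and 3.33 in the ESCs and 84.4 in the iPSC, and the iPSC lay above the iNSLC median of 21.3. Both genes were highest in cell 72. ADGRB2, an adhesion receptor gene, was found in 52 cells, the upper limit of the rule, and was the most even of the 10 surface genes with the largest mean, with a CV of 0.921.

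CNTN2 encodes contactin-2, found on growing axons, and it had a read in 48.1% of the lower-numbered cells and 78.9% of the higher-numbered. Its highest value was 729, in cell 81, against a median of 8.51. ROBO3, the gene of a Slit receptor relative, was at 805 in cell 40, while the median cell had no read. The 5 highest cells held 89.4% of its summed level, and its mean of 16.8 was 4.51 without cell 40. UNC5B, a netrin receptor gene, was found in 52 cells at up to 284, and in 66.7% and 89.5% by cell number. SLITRK2, the gene of a synaptic adhesion protein, was found in 17 cells alone (26.2%, CI 16.0% to 38.5%), at a median of 56.1 there. FLRT1, TYRO3 and MCAM were found in 47, 50 and 50 cells at up to 77.7, 79.8 and 70.1. MCAM, an adhesion gene of vessels and mesenchyme, was at 46 to 205 in the PSCs, which is above its iNSLC median of 11.3.

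**Figure D4:**
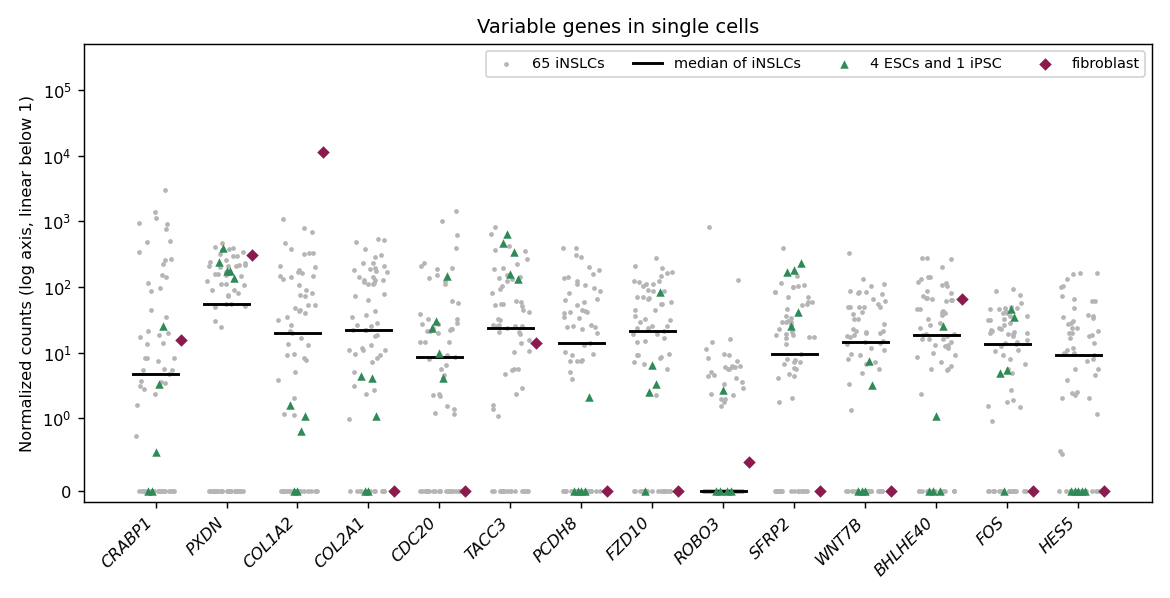
Normalized counts (y axis, log axis that is linear below 1) of 14 variable genes (x axis), with 1 grey point per iNSLC, a black line at the iNSLC median, green triangles for the 4 ESCs and the iPSC, and a dark red diamond for the fibroblast. PXDN has a gap between the cells at 0 and a lowest detected cell of 24.3, ROBO3 has 1 cell at 805, and COL1A2 in the fibroblast lies above every iNSLC.

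Of the 27 variable secreted genes, COL1A2 had the largest mean. COL1A2, the gene of a type I collagen chain, was found in 45 cells at up to 1069, with a median of 19.9. The fibroblast had 11345, which is above every iNSLC, and the PSCs had 0 to 1.62. COL2A1, the gene of type II collagen, which is made in cartilage and in early neural tissue, was found in 51 cells at up to 536 and had no read in the fibroblast. The PSCs had 4.45, 0, 0 and 4.17 in the ESCs and 1.07 in the iPSC, and 41 iNSLCs had at least 10 reads of it. SFRP2, the gene of a secreted Wnt antagonist, was found in 45 cells at up to 394. It was at 170.4, 25.5, 181 and 41.7 in the ESCs and 231 in the iPSC, all above the iNSLC median of 9.48. WNT7B, the gene of a Wnt ligand, was found in 46 cells at up to 335, and at 0, 0, 0 and 7.5 in the ESCs and 3.21 in the iPSC. GDF15, a stress-responsive growth factor gene, was found in 37 cells at up to 185, whereas only ESC cell 14 had a read of it. COL6A1, NID2, CRISPLD2, CCN2 and IGFBP5 were found in 41, 50, 38, 39 and 43 cells.

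COL2A1 and SFRP2 went together in the cells. Over the 4371 pairs of the 94 variable genes in the 3 classes the median Spearman correlation over 65 cells was 0.0715, and this pair had the highest, 0.644. It was 0.660 in the cells numbered 56 or below and 0.653 in those numbered 57 or above. In 40 cells both had a read, 11 had COL2A1 alone, 5 had SFRP2 alone and 9 had neither. COL2A1 and WNT7B ran in opposite senses, at -0.41. These correlations describe cells of 1 culture that share library preparation, and they carry no test. The lowest of all was that of BHLHE40 and ZNF142, at -0.52.

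Of the 42 variable transcription factor genes, several are immediate early genes, which are switched on within minutes of a stimulus. FOS was found in 47 cells (72.3%, CI 59.8% to 82.7%) at up to 91.6, FOSB in 40 at up to 145, and EGR1 in 45 at up to 412. FOS and FOSB correlated at 0.593, with 0.542 in the lower-numbered and 0.671 in the higher-numbered cells. EGR1 and FOS correlated at 0.492, with 0.288 and 0.646. FOSB had a read in 44.4% of the lower-numbered cells and 73.7% of the higher-numbered, and FOS in 70.4% and 73.7%. PSCs had FOS at 0 to 46.7 and EGR1 at 0.540 to 37.6, within the iNSLC ranges. In the whole list of 23 immediate early and stress response genes, 1 was core and 4 were variable, and 14 had a mean of at least 10, where 26.7% of all genes were core and 7.94% variable. The core gene was DDIT4, a stress-induced inhibitor of mTOR, at 23.3 in the lowest cell, 152 at the median and 898 in the highest.

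BHLHE40, the gene of a clock- and hypoxia-responsive repressor, had the largest mean of the variable factors. It was found in 51 cells at up to 281, against 0, 0, 1.08 and 0 in the ESCs and 25.6 in the iPSC. ONECUT2, the gene of a cut homeobox factor, was found in 32 cells (49.2%, CI 36.6% to 61.9%), and the 5 highest cells held 67.5% of its summed level, with 510.2 in cell 25. SALL1, a zinc finger gene of progenitors, was found in 52 cells at up to 99.0, and HOXD1 in 38 at up to 149. HOXD1 had a read in 44.4% of the lower-numbered cells and 68.4% of the higher-numbered. The zinc finger genes ZNF467 and ZNF517 were found in 51 and 52 cells, and ZNF517 was higher in every ESC and in the iPSC (24.6 to 85.0) than at the iNSLC median of 13.3. Further pairs with high correlations were ADGRB2 with E2F7 at 0.607, SLIT2 with SP2 at 0.509 and NPAS3 with WNT3 at 0.501. In the lower- and higher-numbered cells ADGRB2 with E2F7 had 0.522 and 0.633, SLIT2 with SP2 0.310 and 0.690, and NPAS3 with WNT3 0.277 and 0.589. The 4 that complete the 10 highest, ID1 with NID2, SLIT3 with SP5, COL1A2 with SORL1 and ID1 with ZNF768, were at 0.463 to 0.484.

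Cell division genes supplied variable genes and no core gene, where 6.94% of all named genes were core. Among them 18 mitosis and 14 DNA replication genes had a mean of at least 10. Over all genes with such a mean, 26.7% were core and 7.94% variable. Of 29 mitosis genes 16 were variable (55.2%, where 2.06% of all genes were), falling to 9 with the largest value of each gene left out and to 7 over the higher-numbered cells alone, and of 26 DNA replication genes 7 were variable (26.9%). CDC20, an activator of the anaphase-promoting complex, had a read in 45 cells, with 8.62 at the median and 1448 in cell 47. MKI67, the gene of the proliferation antigen Ki-67, had a read in 38 cells, with 6.98 at the median and 533 in cell 47. TOP2A, the topoisomerase gene, was found in 57 cells, at a median of 12.4 and 750.2 in cell 47. TACC3, a spindle gene outside the list, was also highest in that cell, at 820.0.

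Most of the mitosis RNA was in few cells. The 29 mitosis genes summed to 16.1 in the lowest iNSLC, 102 at the median and 6709 in cell 47. Cell 86 came next with 3061. The 5 highest cells held 52.1% of the sum over all 65 and the 10 highest 69.6%. In 13 iNSLCs the sum reached the lowest PSC, at 584, and in 6 it exceeded the highest PSC, at 1139. Of these 13 cells, 7 are numbered 56 or below and 6 are numbered 57 or above. Cell 47 was the cell with the most reads, 695241, and it held the highest value of 16 of the 18 mitosis genes with a mean of at least 10, against 4.09% of all genes with such a mean.

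The sum over DNA replication genes was below the PSCs in most iNSLCs. Their sum was 57.4 to 1414 in iNSLCs, with a median of 331 and a highest cell 84, and 1185 to 3347 in PSCs. Only 2 iNSLCs reached the lowest PSC. TYMS, the thymidylate synthase gene, was found in 64 cells at a median of 121, higher than in any PSC (15.3 to 72.9). RRM2, a ribonucleotide reductase gene, had a median of 7.16 in iNSLCs and 297, 12.8, 408 and 256 in the ESCs and 145 in the iPSC. POLE, the gene of a DNA polymerase subunit, had a read in 38 iNSLCs, at a median of 2.25, whereas the PSCs had 1179, 1392, 222 and 904 in the ESCs and 139 in the iPSC.

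**Figure D5:**
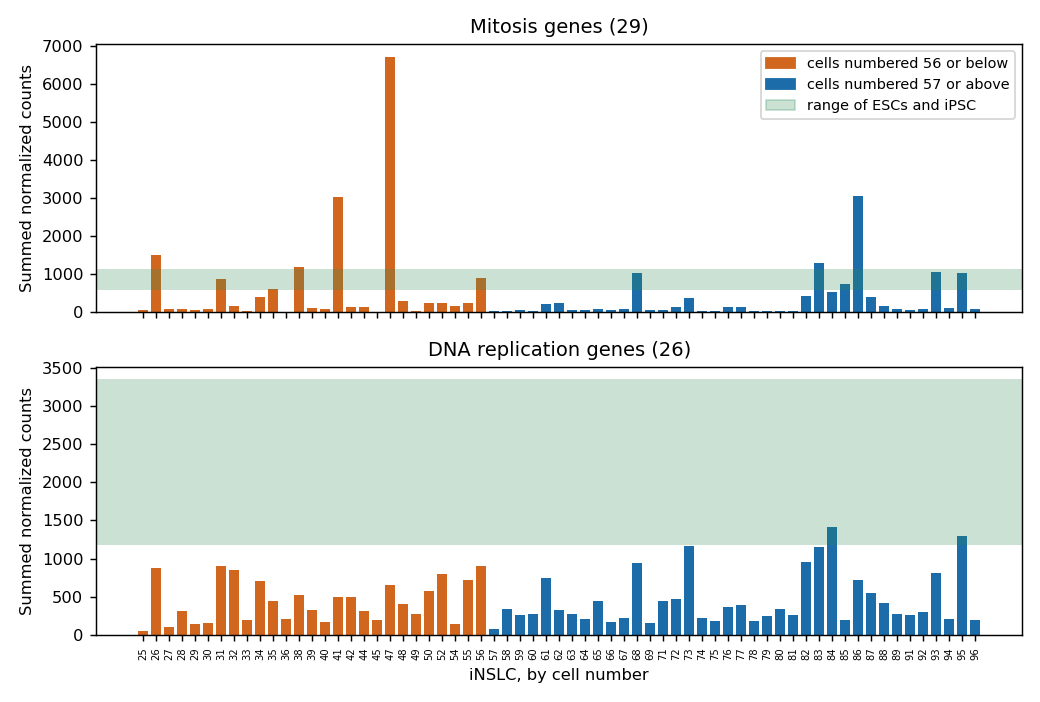
Summed normalized counts (y axis) of 29 mitosis genes (top) and 26 DNA replication genes (bottom) in each iNSLC in order of cell number (x axis), with cells numbered 56 or below in orange, those numbered 57 or above in blue, and the range of the 5 PSCs as a green band. Cell 47 reaches 6709 for mitosis genes, where the median cell has 102, and 2 cells reach the PSC band for DNA replication genes.

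Markers of other cell types were checked against the 2 sets. No gene of the neuron, glial, neural crest, fibroblast, epithelial, endothelial, blood or muscle lists was core, where 6.94% of all named genes were. Few of these genes reached a mean of 10, as all but 3 core genes did. They were 4 neuron, 1 glial, 4 neural crest, 5 fibroblast and 1 muscle genes, and 0 of the other lists. Of all genes with such a mean 26.7% were core and 7.94% variable, against 2.06% variable over all named genes. Of 18 neuron and neuroblast genes 1 was variable, DCX, the gene of the neuroblast protein doublecortin, which was found in 52 cells at a median of 11.5 and at 349 in cell 27. An iNSLC had a read of 3 to 15 of these 18 genes (median 7), and the list summed to 8.67 to 802 normalized counts, against 18.3 to 134 in PSCs. INSM1, a factor gene of newborn neurons, had at least 10 reads in each of the 5 cells with a read (7.69%, CI 2.54% to 17.0%), with 187 in cell 27. Cell 27, singled out after its values were seen, held the highest values of DCX, INSM1 and the ligand gene JAG1. It also held the highest value of 2.76% of all genes with a mean of at least 10. Its neuron and neuroblast sum of 802 was followed by 745 in cell 81. Cell 81 held the highest value of 2 of the 4 listed genes with such a mean.

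PAX3, a gene of dorsal neural tube and neural crest, had a read in 62 of 65 cells, at a median of 78.1 and PAX7 in 53. Both missed the core, PAX3 by 3 cells. SOX10, which defines migrating neural crest, had a read in 5 cells at no more than 16.2. Of 20 fibroblast genes, COL1A2, COL6A1 and ACTA2 were variable (15%, against 2.06% of all named genes). They were among the 5 with a mean of at least 10, where 7.94% of all such genes were variable. The list summed to 13.8 to 1122 in iNSLCs and to 43509 in the fibroblast, so every iNSLC was far below it. An iNSLC had a read of 2 to 11 of these genes. Their part in the level of COL1A2 and COL6A1 in single iNSLCs was not tested.

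The 15 pluripotency genes summed to 17.2 to 362 in iNSLCs, below every PSC at 1345 to 3137. LIN28A, the gene of an RNA-binding protein of early embryos, was the only one that was core (6.67%, against 6.94% of all named genes). It was at 6.08 in the lowest cell, 55.6 at the median and 251 in the highest, and the vectors carry LIN28. Of 11 epithelial genes an iNSLC had a read of 0 to 5, of 6 endothelial genes 0 to 3 and of 7 blood cell genes 0 to 2. The endothelial genes KDR and TEK and the monocyte gene CD14 had a read in 0 of 65 cells, which, taken as 3 counts of 65, allows a share of cells with a read of up to 4.62%. DES, the desmin gene, was the variable gene of the 8 muscle genes (12.5%, against 2.06% of all named genes), found in 41 cells at up to 78.0 and in no reference cell. Of 11 astrocyte and oligodendrocyte genes only GJA1, a connexin gene that progenitors also use, had a mean of at least 10, with a read in 64 cells. Of the 24 neural stem cell genes 9 were core (37.5%, against 6.94% of all named genes), and HES5 was variable. A mean of at least 10 was reached by 23 of the 24, where 26.7% of all such genes were core. The sum over the 24 genes was 1651 to 9532 in iNSLCs, above the highest PSC at 794 in all 65 cells. It was 7482 in the fibroblast, of which VIM made up 7161. VIM was also 61.9% of the sum in the median iNSLC. Without VIM the sum was 776 to 3154 in iNSLCs, 361 to 779 in PSCs and 321 in the fibroblast, and 64 of 65 iNSLCs were above the highest PSC.

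The limits of the rule part genes with like values. FASN, CRB2 and PEG3 lacked a read in 1 cell each and were left out of the core with means of 723, 405 and 346, whereas STARD3NL, LAMTOR4 and SAP18 were core with means of 9.96, 11.7 and 11.4. FASN encodes fatty acid synthase and CRB2 a polarity protein. KIF26B, TSPAN17 and CNTN1 were just above the mean of 10, and TMEM109, LTBP3 and NOP14 just below it at 9.98 to 9.99. ADGRB2, ANTKMT and AP5Z1 had a read in 52 cells and were variable, whereas NTN1, FBN2 and PIK3C2B with 53 were not. NTN1, the gene of the guidance protein netrin-1, was at a mean of 42.9. At the lower limit stood SLITRK2 with 17 cells, AURKB with 18 and CDCA8 with 21, the last 2 being mitosis genes. The lowest levels in cells with a read among the variable genes were those of ERC2, OMP, RASSF1, SLIT2 and SLC25A24, with medians of 7.27 to 11.2 there.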

How the data were processed

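RamDA-seq profiles of sorted single marmoset cells were taken from the authors' table of normalized counts, a signal value per gene and cell as deposited. Tools listed in the submitters' processing notes, with no role stated, are Seurat 3.0.0, STAR 2.6.0c, Trimmomatic and featureCounts 1.5.1. For the genome build and annotation, the entry is not given in the sources used here. Reads were recovered as multiples of the value of a single read in each cell, and 100% of values came out whole to within 0.02. A row lacking a gene name, at most 0.449% of a cell, was left out.

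A gene was detected at a value above 0. Means, SDs, CVs, the CV from counting alone and Spearman correlations were computed with Python 3.11.15, pandas 2.3.3, numpy 2.4.6 and scipy 1.17.1, and plots with matplotlib 3.10.9. Log2 ratios used a pseudocount of 1. Lower bounds of folds used a floor of 3 reads over the group, 0.648 normalized counts for PSCs and 1.21 for the fibroblast. With 1 culture per group no test between groups was run. The steps were tested on simulated data whose planted genes lay far from the limits of the rule, so that test does not bear on genes near them.

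The members and lists were chosen with earlier results of these data known. The lists of chromatin regulators, planar polarity, RNA-binding factors, unfolded protein response and p53 targets were written after the core genes were seen, as was the removal of ZFP36, ZFP36L1 and ZFP36L2 from the transcription factors and of HSPG2, HSPBAP1 and HSPBP1 from the chaperones. Named are the given markers, the core genes of largest mean and of smallest and largest CV, those of largest mean without a read in PSCs or in the fibroblast, the variable genes of largest mean, the core and variable genes of largest mean in each class and the best correlated pairs (10 each), the 5 variable genes of smallest and largest mean where detected, up to 3 genes on either side of each limit, and up to 6 of every other list. Symbols starting with LOC (75 core, 20 variable) were counted and not named. EDA2R and the genes of the closing section outside this rule (CRELD2, XBP1, TNFRSF10B and PIDD1) were chosen after their values were seen. Alternatives were other read minimums, thinning to 100000 reads (62 iNSLCs, 3 being too shallow), subsets of cells, other limits, scaling, another pseudocount, medians, and leaving out each PSC. Some genes that the naming rule selects are not reported here. Promoters and proteins were not analysed here.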

Additional observations from a re-analysis of the deposited data

Results flagged for a closer look

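Over 11 measures of the 4 ESCs that were examined for a cell far from the rest, 2 had such a cell. A chance rate cannot be set beside this count, since the 4 cells differ in reads and 1 flag rests on 1 read. ESC cell 11 had a read of 1302 core genes, while the other ESCs had 1599 to 1615. It had 134328 reads in all, against 464547 to 1003718 in the other ESCs. CDH2 was at 0.405 in ESC cell 10, which is 1 read, and at 0 in the other 3.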

How the results depend on the processing

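The counts of core and variable genes depend on the limits that define them. The core held 1636 genes, and 706 with at least 5 reads required in every cell, 3723 with a read in at least 95% of cells, and 2771 over the cells numbered 57 or above alone. With at least 2 reads, cells thinned to 100000 reads, without the 6 cells with the fewest genes, or over the cells numbered 56 or below alone it held 1207 to 2153, within 1.5 times. The variable set held 486 genes, and 811 with at least 2 reads, 2549 with at least 5 reads, 870 with thinned cells (474 of the 486 among them), 759 over the cells numbered 56 or below (294 shared) and 306 over those numbered 57 or above (219 shared). It held 84 with a mean of at least 20, 1997 with a mean of at least 5, 1391 with a read in 10% to 90% of cells and 162 with a read in 30% to 70%. It held 398 to 505, within 1.5 times, without the 6 cells with the fewest genes, with every cell scaled to the median total (485 shared), or with the largest value of each gene left out, which took 85 genes out. Without each PSC in turn 9 to 12 core genes had no read in the others. The median log2 ratio of core genes, 0.16, was 0.04 to 0.28 without each PSC in turn, lowest without ESC cell 11 and highest without ESC cell 12, and 0.13 to 0.46 under the other alternatives. These moves were smaller than the SD of 0.51 over single PSCs. No paired analysis was possible because the groups share no replicate numbers and no test between groups was made.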

Other observations

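Cell 60 held the highest values of several genes of the unfolded protein response, the reaction of the endoplasmic reticulum to misfolded protein. These genes were listed after the values had been seen. Cell 60 held the highest value of HSPA5, at 1700.3 normalized counts against a median of 113 over the other 64 iNSLCs. It was also highest for the calcium-binding chaperone gene CALR, at 1208 against 171. The disulfide isomerase gene PDIA4 was at 658 against 109, and CRELD2, a gene induced in the same response, at 97.5 against 20.1. These are 4 of the 11 listed genes with a mean of at least 10, where cell 60 held the highest value of 2.32% of all genes with such a mean. PDIA6 and XBP1 in cell 60 were at 75.4 and 13.3, against medians of 76.4 and 29.7. Of the 16 listed genes 8 were core and 1 was variable, all among the 11 with a mean of at least 10, where 26.7% and 7.94% of all such genes were. Cell 60 had 174494 reads, and it was also the cell with the highest value of IGFBP2, which made up 81.8% of its sum over secreted protein genes.

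Genes known as targets of p53, listed after their values had been seen, were also summed. The vectors encode a dominant-negative p53. The 25 genes in the table summed to 179 in the lowest iNSLC, 1247 at the median and 2404 in the highest. In 55 of 65 cells the sum was above the highest PSC, at 494, and the fibroblast was at 1099. CCNG1, the cyclin G1 gene, was core at 46.7 in the lowest cell, 324 at the median and 801 in the highest, and the PSCs had 27.9, 17.9, 97.2 and 28.3 in the ESCs and 60.9 in the iPSC. CDKN1A, the gene of the cell cycle inhibitor p21, was found in 56 iNSLCs at a median of 79.0, with a read in ESC cell 14 alone of the PSCs and 238 in the fibroblast. TNFRSF10B and EDA2R, receptor genes of the tumour necrosis factor receptor family, and the adaptor gene PIDD1 were variable, with a read in 48, 48 and 49 cells. In all, 1 of the 25 was core and 5 were variable, and 18 had a mean of at least 10, where 26.7% of all genes were core and 7.94% variable. With a read in at least 95% of cells in place of all, 7 would be core, and over the cells numbered 57 or above alone 1 would be variable. No test was made of either pattern.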
